A study of Mus musculus with 46 samples.

Results

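The genes described here are 9 members of the SOX family of transcription factors, namely Sox2, Sox4, Sox5, Sox6, Sox8, Sox9, Sox10, Sox11 and Sox12. They were chosen by name, as SOX genes of neural, neural crest and cartilage lineages, out of 56854 genes present in both deposited count tables. Earlier results of these data were known when they were chosen. All 9 were found by gene identifier in both tables. The filter on low counts was passed by 8 of the 9 in both tables, and not by Sox10.

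The data were bulk RNA sequencing of 46 mouse synovial sarcomas, a soft tissue tumor driven by the fusion oncoprotein SS18::SSX. Every tumor, controls included, was started by injecting the limb of a mouse with the cell-permeable recombinase TATCre at 8 days of age, which switched on a conditional human fusion from the Rosa26 locus. The hSS2 tumors express SS18::SSX2 and the hSS1 tumors express SS18::SSX1. The hSS2 groups were 13 controls with the fusion alone, 8 tumors with floxed Pbrm1, 8 with floxed Arid1a and 8 with floxed Arid1b, and the hSS1 groups were 5 controls and 4 tumors with floxed Pbrm1. Per the study's methods the floxed alleles were homozygous. Pbrm1 encodes the polybromo subunit of the PBAF chromatin remodeling complex, and Arid1a and Arid1b encode alternative subunits of the canonical BAF complex. Each library was a tumor of a separate mouse, and host cells in the tumor may keep unrecombined alleles. Recombination in host cells was not measured in the data used here. Age at harvest and sex were not given for single tumors in the sources used here.

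SOX proteins bind the minor groove of DNA through a shared HMG domain and bend it, and most act together with a partner factor. The SOXB1 factor SOX2 maintains neural progenitors and pluripotent cells. The SOXC factors SOX4, SOX11 and SOX12 are active in embryonic progenitors and in newly formed neurons. The SOXD factors SOX5 and SOX6 lack an activation domain and assist the SOXE factor SOX9 in cartilage, and the SOXE factors SOX8 and SOX10 act in neural crest and glia. Sox2 and Sox11 belong to a list of synovial sarcoma genes that the study drew up. Sox5 belongs to its list of genes expressed both in the mesenchymal cells of origin and in tumor cells.

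Libraries held between 10137668 and 21294657 counted fragments. The floxed gene was the lower one in each floxed group, although its test was passed by Pbrm1 and Arid1a in hSS2 only. Pbrm1 fell from 253 ± 37 to 105 ± 15.4 CPM (counts-per-million, scaled by the TMM method over all 46 libraries; SD, n = 13 and 8) in hSS2, and Arid1a from 487 ± 87.4 to 254 ± 14.3. Arid1b was at 203 ± 89.6 against 352 ± 111 CPM in hSS2, and Pbrm1 at 186 ± 62.1 against 315 ± 38 CPM in hSS1. The library labelled hSS2 control replicate 9 had 239 CPM of Arid1a, inside the range of the floxed Arid1a tumors, and results are given without it where that moves a call. Each sample title carries a number, read here as a mouse number, though the titles do not say what it stands for. These mouse numbers ran under 1000 in all floxed Arid1a tumors. They ran from 1000 to under 2000 in all floxed Arid1b and all floxed Pbrm1 hSS1 tumors, and from 2000 in all floxed Pbrm1 hSS2 tumors. The hSS2 controls were spread over these ranges, from the lowest up, with 5, 4 and 4 tumors. The summed skeletal muscle markers ran from 13 to 46767 CPM among hSS2 controls, from 7.12 to 14694 in hSS2 Pbrm1-fl, from 5.70 to 10867 in Arid1a-fl and from 13.2 to 43643 in Arid1b-fl tumors. In bulk tumors, fewer cells of a type and less RNA per cell cannot be told apart.

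The 9 genes lie on 9 chromosomes of the GRCm38 (mm10) build. Sox2 lies at chr3:34650405-34652461 on the plus strand, inside the span of the long noncoding RNA gene Sox2ot, which is on the same strand and shares no exonic base with it. Sox11 lies at chr12:27334264-27342574 on the minus strand. The remaining SOXC genes are Sox4 at chr13:28948919-28953713 and Sox12 at chr2:152393611-152398063, both on the minus strand. Sox5 spans chr6:143828425-144781977 and Sox6 spans chr7:115470872-116038796, both on the minus strand. The SOXE genes are Sox8 at chr17:25565892-25570686 (minus), Sox9 at chr11:112782224-112787760 (plus) and Sox10 at chr15:79154908-79165240 (minus). Antisense genes share exonic bases with 3 of them: Gm26735 shares 2616 with Sox4, Sox5os1 shares 1330 with Sox5, and 2810468N07Rik shares 329 with Sox8. The libraries were stranded, but whether the counting used strand is not given in the sources used here, so reads of these pairs may be mixed.

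The 250 bases before the RefSeq start of Sox11 and Sox2 (GRCm38.p6) are shown because these genes varied together from tumor to tumor and had the largest fitted decreases among the 8 genes tested in hSS2 tumors with floxed Pbrm1. Each is written in the direction of transcription, in lower case, with CG dinucleotides in capitals.
Sox11, chr12:27342719-27342968, minus strand: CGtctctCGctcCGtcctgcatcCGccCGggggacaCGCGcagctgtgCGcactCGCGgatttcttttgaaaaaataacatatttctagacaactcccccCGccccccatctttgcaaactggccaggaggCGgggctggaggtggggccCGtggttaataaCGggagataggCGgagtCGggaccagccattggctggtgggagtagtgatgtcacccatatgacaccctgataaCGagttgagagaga
Sox2, chr3:34649745-34649994, plus strand: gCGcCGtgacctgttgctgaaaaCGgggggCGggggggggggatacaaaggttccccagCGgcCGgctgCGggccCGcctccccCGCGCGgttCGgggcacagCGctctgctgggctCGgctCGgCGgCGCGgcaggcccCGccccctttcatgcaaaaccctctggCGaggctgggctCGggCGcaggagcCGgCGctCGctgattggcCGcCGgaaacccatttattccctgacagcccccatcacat
The Sox11 window held 17 CG dinucleotides and the Sox2 window 27, against a median of 6 over 32536 windows of all genes. As many CG dinucleotides or more stood in 23.7% of all windows for Sox11 and in 8.6% for Sox2. Windows were at hand for 7 of the 9 genes, and that of Sox12 was the densest with 35 CG dinucleotides, a number reached by 3% of all windows. Of the SOX motif letters searched on both strands, ACAAT was not found in the Sox2 and Sox11 windows and ACAAAG was found 1 time in Sox2 and not in Sox11, while 27.4% and 16.5% of all windows held them. A match of letters is a description and not a binding site.

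Per kilobase of exon, Sox2 was the most abundant of these genes in the controls of both backgrounds, and the genes ranked after it differed. In hSS2 controls Sox2 led with 18.9 ± 11.2 CPM per kb (SD, n = 13), followed by Sox9 with 13.4 ± 4.91, Sox6 with 11.5 ± 4.49, Sox4 with 11.2 ± 4.44, Sox11 with 7.27 ± 3.44 and Sox12 with 6.35 ± 2.65. In hSS1 controls Sox2 was at 43.1 ± 22.3 CPM per kb (SD, n = 5), Sox11 at 31.7 ± 12.5 and Sox4 at 31.2 ± 20.1, ahead of Sox12 at 11.9 ± 4.56 and Sox6 at 9.01 ± 2.76. Sox5 and Sox8 stayed under 4 CPM per kb in every group mean, and Sox10 was near 0. Exon lengths are unions over all annotated transcripts, which are long for Sox5 and Sox6, so their levels per kb are approximate.

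**Figure D1:**
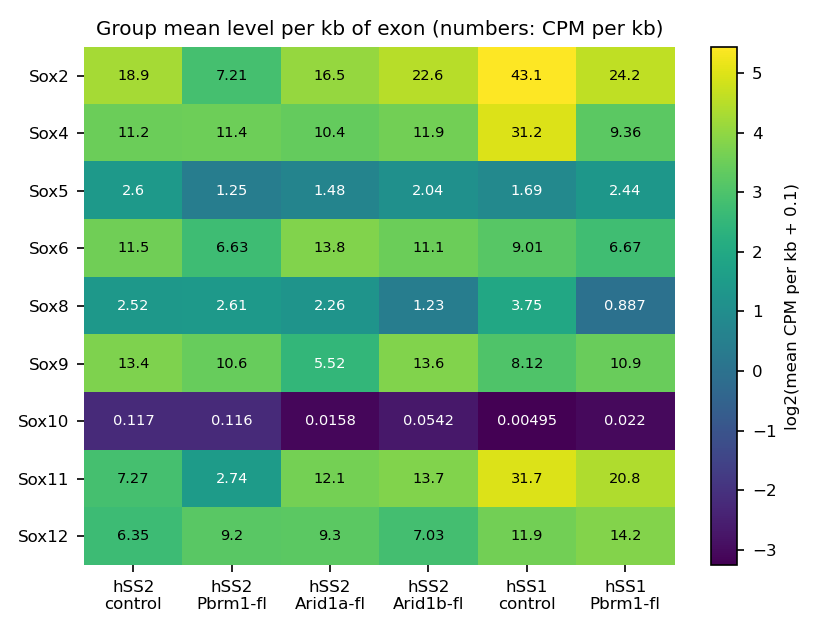
Mean level of the 9 SOX genes (rows) in the 6 genotype groups (columns), written in each cell in CPM per kb of exon and colored on a log2 scale after adding 0.1. Sox2, Sox4 and Sox11 were brightest in hSS1 controls, at 43.1, 31.2 and 31.7 CPM per kb, and Sox10 was darkest in every group.

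Tumors of the same genotype differed widely in these genes. The SD of log2 CPM within hSS2 groups was 1.28 for Sox2, larger than in 90.5% of the 20083 genes tested, and 1.03 for Sox8. It was 0.83 for Sox11, 0.78 for Sox5, 0.77 for Sox9, 0.59 for Sox6, 0.57 for Sox4 and 0.51 for Sox12, and the median over all genes tested was 0.46. All 8 tested genes therefore varied more between like tumors than the median gene. For Sox2 and Sox8 the SD of single tumors exceeded 1 log2 unit. A difference between group means has a smaller error, given below as SE.

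**Figure D2:**
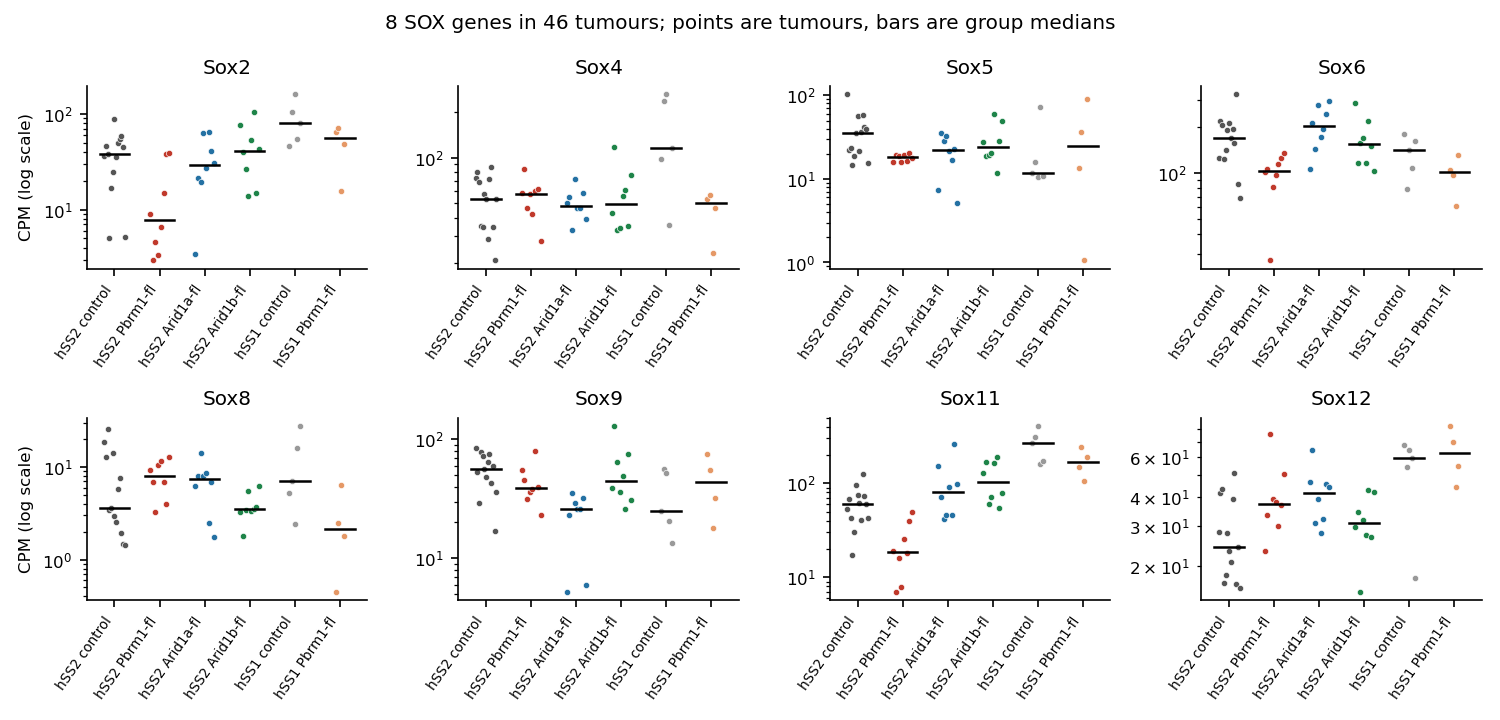
Level of 8 SOX genes in each of the 46 tumors (points, CPM on a log axis) by genotype group, with group medians as bars. The hSS2 Pbrm1-fl tumors sit low for Sox11, with a median of 18.7 CPM, and lie close together for Sox5, between 16 and 20.2 CPM.

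Disruption of Pbrm1 in hSS2 was compared with hSS2 controls to ask how tumors without this PBAF subunit differ. Of the 8 SOX genes tested, 2 fell, Sox11 and Sox6, and none rose, at an adjusted p under 0.05 (edgeR quasi-likelihood test, Benjamini-Hochberg over 20083 genes), where 7.35% of all genes tested passed, 3.95% as lower and 3.4% as higher. The median log2 difference of the 8 was -0.56, and -0.0042 over all genes tested. Disruption of Arid1a gave 1 lower SOX gene, Sox9, where 3.17% of all genes passed, 1.76% as lower and 1.41% as higher, with a median of -0.15. Disruption of Arid1b gave 0 SOX genes by edgeR and 0 by DESeq2, where 0.0548% of all genes passed in edgeR, 0.0299% as lower and 0.0249% as higher. Of the SOX genes 2 had an unadjusted p under 0.05, beside 1250 of 20083 genes tested. The hSS2 comparisons share their controls and are not independent. Compared directly with Arid1a-fl, Pbrm1-fl tumors had 2 lower SOX genes, again Sox11 and Sox6, where 12.3% of all genes passed, 5.5% as lower and 6.79% as higher.

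In hSS1, Pbrm1-fl tumors were compared with hSS1 controls, where the fitted fall of Pbrm1 itself was smaller than in hSS2. Its log2 difference was -0.75 in hSS1 (edgeR adjusted p = 0.193) and -1.27 in hSS2 (edgeR adjusted p = 4.2e-12). The difference between these effects, 0.51, did not pass (edgeR adjusted p = 0.125). The paper also reports weaker depletion in this background and proposes selection for tumor cells in which not every floxed allele recombined. The part of this smaller fall in the hSS1 results and in the differences between backgrounds was not tested. No SOX gene passed in edgeR, where only 1 of 17786 genes passed, or 0.00562%. An unadjusted p under 0.05 was reached by 2 of 8 SOX genes, beside 3059 of the 17786 genes. DESeq2 called 1 SOX gene, Sox4, beside 1184 of 17608 genes. The difference between the Pbrm1-fl effects in hSS1 and hSS2 was tested in a combined fit, where 2.86% of 21725 genes passed, 1.16% with a lower and 1.7% with a higher effect in hSS1. Sox4 was the 1 SOX gene with such a difference. The levels of hSS1 and hSS2 controls were compared after the data had been seen, and 3 SOX genes, Sox4, Sox11 and Sox12, were higher in hSS1, where 24.7% of all genes passed, 12.7% as higher and 12% as lower. Both backgrounds were deposited as separate tables, so background and table cannot be told apart.

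**Figure D3:**
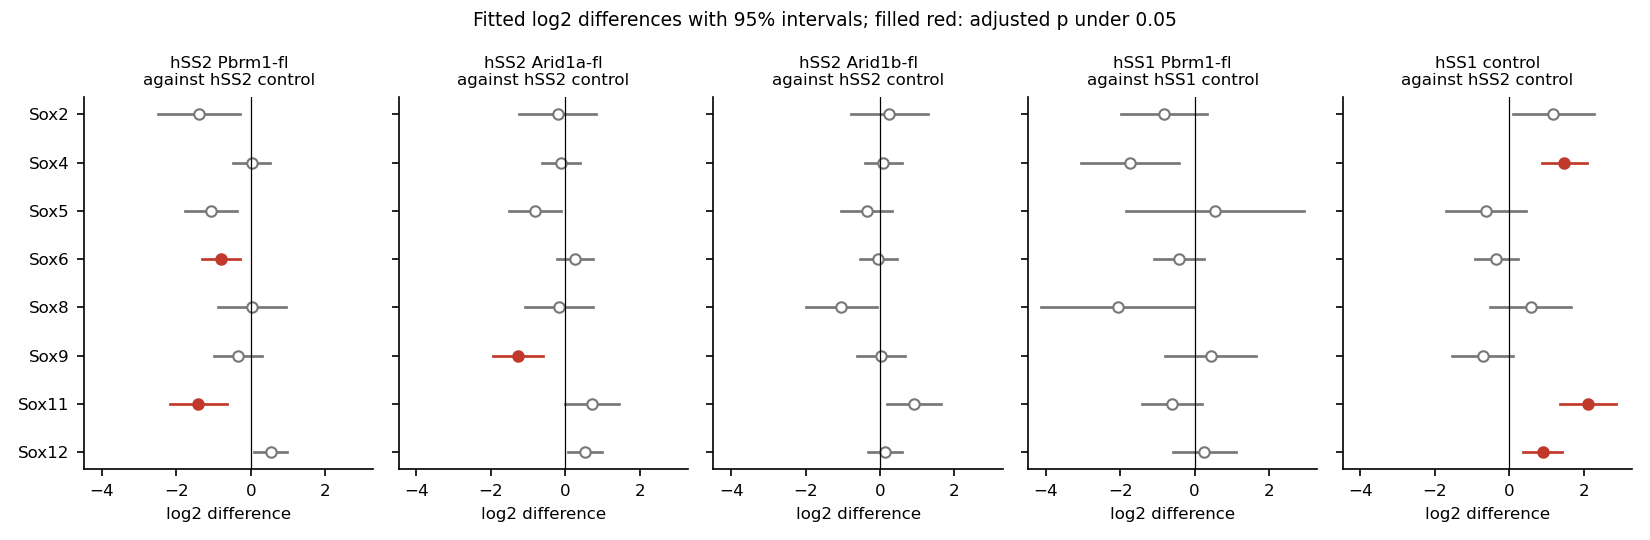
Fitted log2 differences of 8 SOX genes (rows) in 5 comparisons (panels), as points with 95% intervals, filled red where the adjusted p was under 0.05. Sox11 lies at -1.40 after Pbrm1 disruption in hSS2 and at 2.13 for hSS1 controls against hSS2 controls.

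Sox11, a SOXC gene of embryonic progenitors and maturing neurons, was low in hSS2 Pbrm1-fl tumors and high in hSS1 tumors. In hSS2 controls it ran from 17.4 CPM through a median of 60.8 to 126. In hSS2 Pbrm1-fl tumors it ran from 7 through 18.7 to 49. Every Pbrm1-fl tumor stood below the control median and 3 of 8 below every control, though the groups overlapped. The mean was 22.8 ± 14.8 CPM (SD, n = 8) against 60.4 ± 28.6 (n = 13), a log2 difference of -1.40 (SE 0.38, edgeR adjusted p = 0.0195), or a 2.65-fold lower level. This call held in each of the 21 fits that left out 1 tumor, with adjusted p from 0.00919 to 0.047. Against the 4 controls numbered from 2000, which ran from 17.4 to 68.1 CPM, the difference was -1.01 and did not pass (edgeR adjusted p = 0.324). Against all hSS2 controls the Schwann cell marker Drp2 also fell, from 51.2 to 8.17 CPM, as the 1 called gene among the host cell, tumor and proliferation markers. The 8 Schwann markers tested, Drp2 among them, had a median log2 difference of -0.045, with 2 at an unadjusted p under 0.05 (edgeR). Such a p was reached by 4490 of all 20083 genes tested. For the 6 tumor markers the median was -0.56, with 4 at such a p. It was -0.42 for 8 fibroblast markers, with 2 at such a p. For 10 skeletal muscle, 8 macrophage and 10 proliferation markers it was -0.85, 0.38 and 0.30, with 0 at such a p. The part of Drp2 and of these markers in the Sox11 result was not tested.

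The other floxed groups did not share this low Sox11 level. In Arid1a-fl tumors Sox11 ran from 41.9 through 81.6 to 259 CPM, and in Arid1b-fl tumors from 54.8 through 104 to 189. The log2 difference from control was 0.72 (SE 0.35, edgeR adjusted p = 0.215) with floxed Arid1a and 0.92 (SE 0.35, edgeR adjusted p = 0.709) with floxed Arid1b, so neither passed, although 4 of 8 Arid1b-fl tumors stood above every control. Between Pbrm1-fl and Arid1a-fl tumors the difference was -2.13 (SE 0.42, edgeR adjusted p = 0.000967), 7 of 8 Pbrm1-fl tumors lay below every Arid1a-fl tumor, and the call held in all 16 fits without 1 tumor. Taking each group against controls of its own mouse numbers, it was -1.55 and did not pass (edgeR adjusted p = 0.19).

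Sox11 reached its highest levels in hSS1. The hSS1 controls had 271, 310, 408, 158 and 171 CPM in replicates 1 to 5. The hSS1 Pbrm1-fl tumors had 148, 244, 107 and 192 CPM in replicates 1 to 4. All 4 Pbrm1-fl tumors were below the hSS1 control median and 2 below every hSS1 control, with a log2 difference of -0.60 (SE 0.34, 95% interval -1.40 to 0.20) that did not pass (edgeR adjusted p = 0.39). The difference between the effects of floxed Pbrm1 on Sox11 in hSS1 and hSS2 was 0.79 (95% interval -0.45 to 2.04, edgeR adjusted p = 0.501). Controls of hSS1 and hSS2 did not overlap: the lowest hSS1 control stood at 158 CPM and the highest hSS2 control at 126, a log2 difference of 2.13 (SE 0.37, edgeR adjusted p = 0.000135). In order of mean log2 level the groups ran hSS1 control, hSS1 Pbrm1-fl, hSS2 Arid1b-fl, hSS2 Arid1a-fl, hSS2 control and hSS2 Pbrm1-fl. Only the steps from hSS1 control to hSS1 Pbrm1-fl and from hSS2 control to hSS2 Pbrm1-fl were larger than the SD of either neighbor.

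**Figure D4:**
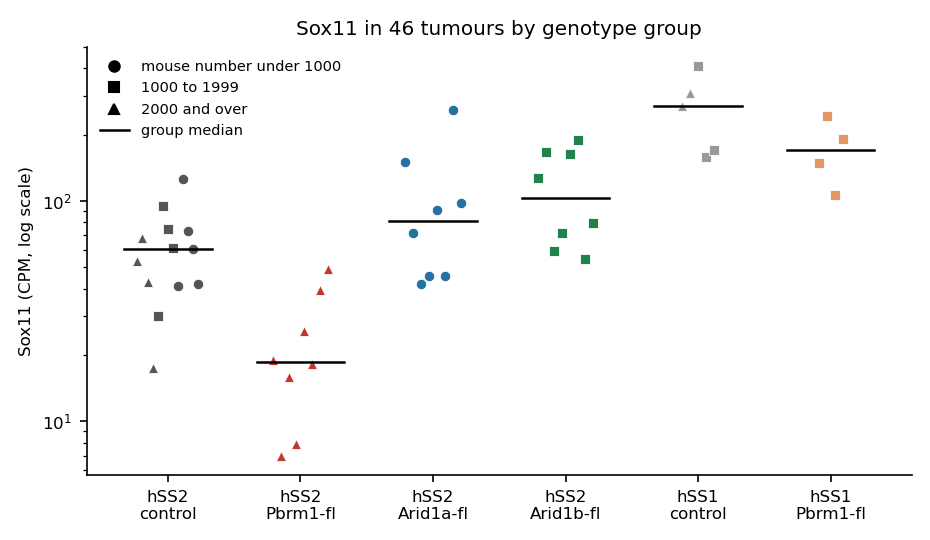
Sox11 in each of the 46 tumors (points, CPM on a log axis) by genotype group, with the shape of a point giving its mouse number range and the bar the group median. The hSS2 Pbrm1-fl tumors lie between 7 and 49 CPM, and the hSS1 controls, from 158 CPM up, lie above every hSS2 control.

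Sox4, the second SOXC gene, passed no test with any floxed gene in hSS2. Its group means there lay between 49.9 ± 12.1 CPM in Arid1a-fl and 57 ± 28.8 CPM in Arid1b-fl tumors (SD, n = 8 each), beside 53.6 ± 21.3 in controls, and the 95% interval of the Pbrm1-fl difference was -0.47 to 0.53 on the log2 scale. The hSS1 controls had 97.8, 237, 263, 35.7 and 115 CPM in replicates 1 to 5, and 4 of 5 exceeded every hSS2 control. The hSS1 Pbrm1-fl tumors had 53.5, 56.5, 23.2 and 46.3 CPM, all below the hSS1 control median and near the hSS2 level. Their log2 difference from hSS1 controls was -1.73 (SE 0.56), which missed the threshold in edgeR (adjusted p = 0.191) and passed in DESeq2 (adjusted p = 0.0282). Against the hSS2 effect it differed by -1.77 (SE 0.50, edgeR adjusted p = 0.0429), a call lost in 17 of 30 fits without 1 tumor, with adjusted p up to 0.122, and lost with controls of the same mouse numbers (edgeR adjusted p = 0.358). The tumors whose absence ended it were hSS1 control replicates 1, 2 and 3, each of the 4 hSS1 Pbrm1-fl tumors, hSS2 control replicates 4, 5, 7, 8 and 11 and hSS2 Pbrm1-fl replicates 2, 3, 4, 6 and 7. The hSS1 against hSS2 control difference was 1.48 (SE 0.30, edgeR adjusted p = 0.00059).

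Sox12, the third SOXC gene, was the least variable of the 8 and showed small positive differences. It ran from 16 through 24.1 to 51.3 CPM in hSS2 controls, from 23.1 through 37.5 to 76.2 in Pbrm1-fl and from 27.9 through 41.9 to 64.5 in Arid1a-fl tumors. The log2 differences of 0.53 for Pbrm1-fl and 0.54 for Arid1a-fl did not pass (edgeR adjusted p = 0.146 and 0.148), though 8 of 8 Arid1a-fl tumors were above the control median. Arid1b-fl tumors were at 31.3 ± 8.91 CPM (SD, n = 8). The hSS1 controls had 67.7, 54.6, 64.6, 59.5 and 17.6 CPM, a mean of 52.8 ± 20.3, and were higher than hSS2 controls by 0.90 (SE 0.26, edgeR adjusted p = 0.0109), with replicate 5 far below the other hSS1 controls. The hSS1 Pbrm1-fl tumors had 82.5, 70.3, 44.3 and 55.1 CPM.

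Between the controls of both backgrounds, the 3 SOXC genes were thus each higher in hSS1, and these 3 calls held under every alternative run. No alternative separates background from deposited table. The paper reports no important pathway as significantly altered between hSS2 and hSS1 tumors, beyond proliferation and latency. Its supplement describes the expression differences as mostly predicted genes, pseudogenes or spurious ones. All 10 proliferation markers were also higher in hSS1 controls, with summed levels of 944 to 2405 CPM against 117 to 1624 in hSS2 controls. In the same comparison 6 of 8 fibroblast and 6 of 6 adipocyte markers were lower, and summed skeletal muscle markers ran from 7.89 to 798 CPM in hSS1 against 13 to 46767 in hSS2 controls. The part of these markers in the SOXC difference was not tested.

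Sox2, the neural progenitor factor, was low in most hSS2 Pbrm1-fl tumors without passing the test. It ran from 5.01 through 38.5 to 89.1 CPM in hSS2 controls and from 2.96 through 7.80 to 38.8 in Pbrm1-fl tumors, of which 7 of 8 were below the control median and 3 below every control. The log2 difference was -1.39 (SE 0.54, 95% interval -2.49 to -0.30), as large as that of Sox11, with an edgeR adjusted p of 0.11 and a DESeq2 adjusted p of 0.0403. Arid1a-fl tumors ran from 3.41 through 28.9 to 65.1 CPM and Arid1b-fl tumors from 13.8 through 41.4 to 104, with differences of -0.21 and 0.25. The hSS1 controls had 45.8, 104, 160, 54.2 and 79.8 CPM and the hSS1 Pbrm1-fl tumors 64.5, 70.9, 15.7 and 48, a log2 difference of -0.83 (SE 0.49, edgeR adjusted p = 0.414). No neighboring groups in the order of Sox2 levels were apart by more than their SD.

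Sox2ot, the noncoding gene that surrounds Sox2, fell with Pbrm1 disruption in hSS2. It went from 21.2 ± 21.3 to 3.38 ± 3.29 CPM (SD, n = 13 and 8), a log2 difference of -2.65 (edgeR adjusted p = 0.0119) that passed in all 25 alternatives, the controls of the same mouse numbers included. Of the 8 noncoding genes at SOX loci that were listed, 2 passed the filter on low counts, Sox2ot and Sox1ot, and Sox1ot was at 12.6 ± 13.6 against 37.3 ± 27.2 CPM.

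Sox5 and Sox6, the SOXD genes, were both low in hSS2 Pbrm1-fl tumors. Sox6 ran from 68.5 through 169 to 325 CPM in controls and from 27.1 through 104 to 134 in Pbrm1-fl tumors, all 8 below the control median. It fell by 0.79 on the log2 scale (SE 0.25, edgeR adjusted p = 0.0475), a value close to the threshold. Of 21 fits without 1 tumor 6 kept it under the threshold, those without hSS2 control replicates 1, 4, 5, 12 or 13 or Pbrm1-fl replicate 8, and adjusted p ran from 0.0234 to 0.0941. Without the library labelled hSS2 control replicate 9 the adjusted p was 0.0552, and against controls of the same mouse numbers the difference was again -0.79 with an adjusted p of 0.243. Arid1a-fl tumors ran from 107 through 203 to 295 CPM, and Pbrm1-fl tumors were lower than these by 1.05 (SE 0.27, edgeR adjusted p = 0.00995), in all 16 fits without 1 tumor, though not when each group was set against its own range of controls (adjusted p = 0.179). Arid1b-fl tumors were at 165 ± 61.6 CPM. In hSS1, Sox6 was at 180, 78.3, 141, 107 and 162 CPM in controls and at 105, 97.9, 60.8 and 132 in Pbrm1-fl tumors, a difference of -0.42 (edgeR adjusted p = 0.468).

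Sox5 ran from 14.7 through 35.2 to 103 CPM in hSS2 controls and from 16 through 18.3 to 20.2 in Pbrm1-fl tumors, a range of under 5 CPM over 8 tumors. All 8 were below the control median and none below every control. The log2 difference of -1.06 (SE 0.35) had an edgeR adjusted p of 0.0544, just over the threshold. It passed in DESeq2 (adjusted p = 0.017), with DESeq2 size factors in edgeR (adjusted p = 0.0487) and without any 1 of hSS2 control replicates 2, 3, 4, 5, 8 and 13. Sox5 did not pass without the low-count filter. Nor did it pass against the 4 controls numbered from 2000, which ran from 14.7 through 22.9 to 103 CPM. Arid1a-fl tumors ran from 5.18 through 22.4 to 35.9 CPM, a difference of -0.82 (edgeR adjusted p = 0.149), and Arid1b-fl tumors from 11.7 through 24 to 59, a difference of -0.35. In hSS1 it was uneven, at 11.9, 15.9, 10.5, 72.0 and 10.8 CPM in controls and 13.4, 36.6, 1.06 and 89.6 in Pbrm1-fl tumors, so that the interval of the difference, -1.85 to 2.95, was wide.

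Sox9, the master regulator of cartilage, fell with floxed Arid1a. It ran from 17 through 56.2 to 85.2 CPM in hSS2 controls and from 5.23 through 25.9 to 35.4 in Arid1a-fl tumors, all 8 below the control median and 2 below every control. The means were 22.8 ± 11.3 CPM (SD, n = 8) and 55.3 ± 20.3 (n = 13), a log2 difference of -1.28 (SE 0.33, edgeR adjusted p = 0.0364). The call was kept in 16 of 21 fits without 1 tumor, the 5 losses coming when Arid1a-fl replicates 1, 2, 5, 7 or 8 were left out. It was kept without the library labelled hSS2 control replicate 9 (adjusted p = 0.0491) and lost against controls of the same mouse numbers, where the difference was -1.02 (adjusted p = 0.105). No cartilage gene of the 10 tested in this comparison passed, 1 had an unadjusted p under 0.05, and none passed in either direction among the host cell, tumor and proliferation markers, though the median log2 difference was -1.33 for 8 fibroblast and -3 for 5 adipocyte markers, -1.32 for 10 skeletal muscle, -0.71 for 8 Schwann and 0.74 for 10 proliferation markers. At an unadjusted p under 0.05 there were 2, 4, 0, 5 and 6 of these, beside 4621 of all 20083 genes tested. Their part in the Sox9 result was not tested. Summed cartilage genes ran from 411 to 1759 CPM in Arid1a-fl tumors and from 138 to 3231 in controls.

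With the other floxed genes Sox9 passed no test against controls. Pbrm1-fl tumors ran from 23.0 through 39 to 79.8 CPM, 7 of 8 below the control median, a difference of -0.34 (95% interval -0.99 to 0.31). Arid1b-fl tumors ran from 25.8 through 44.4 to 130, 5 of 8 below the control median, a difference of 0.03 (95% interval -0.61 to 0.67). Between Pbrm1-fl and Arid1a-fl tumors Sox9 differed by 0.94 (SE 0.36), which edgeR did not call (adjusted p = 0.0766) and DESeq2 did (adjusted p = 0.0491). The hSS1 controls had 25.1, 56.7, 52.1, 20.6 and 13.5 CPM and the hSS1 Pbrm1-fl tumors 75.2, 54.8, 18.0 and 32.3. Of the hSS1 controls 4 of 5 were below the hSS2 control median, a log2 difference of -0.72 (edgeR adjusted p = 0.181).

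Sox8 was low and uneven, and Sox10 was close to absent from the counts. Sox8 ran from 1.45 through 3.6 to 25.8 CPM in hSS2 controls and from 1.82 through 3.51 to 6.2 in Arid1b-fl tumors, a log2 difference of -1.04 (SE 0.47, edgeR adjusted p = 0.784). In Pbrm1-fl and Arid1a-fl tumors it was at 8.14 ± 3.48 and 7.04 ± 3.87 CPM (SD, n = 8 each), and the sign of its small differences from control turned when controls of the same mouse numbers were used. The hSS1 controls had 5.26, 7.09, 2.43, 15.9 and 27.9 CPM and the hSS1 Pbrm1-fl tumors 0.448, 2.47, 6.37 and 1.78, a difference of -2.07 (SE 0.87, edgeR adjusted p = 0.27).

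Sox10, which defines neural crest derivatives and Schwann cells, had 3 counts or fewer in 36 of the 46 libraries and 0 counts in 23. A count of 3 in a library stands for 0.14 to 0.297 CPM, under which its level cannot be read. The highest values were 2.08 CPM in hSS2 Pbrm1-fl replicate 1 and 1.78 and 1.48 CPM in hSS2 control replicates 13 and 4, from 21, 32 and 24 counts. Among Sox10-linked genes the counts were larger: summed neural crest and glia genes ran from 299 to 1035 CPM in hSS2 controls and from 725 to 1179 in Pbrm1-fl tumors. In that comparison 0 of 12 tested passed by edgeR. An unadjusted p under 0.05 was reached by 4 of the 12, beside 4490 of all 20083 genes tested.

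Other genes of SOX pathways were read from lists drawn up by function, with earlier results of these data known. Among the remaining 10 SOX genes, Sox14 fell with Pbrm1 disruption in hSS2, from 18.7 to 9.44 CPM (log2 difference -0.98, edgeR adjusted p = 0.0401), and was lower than in Arid1a-fl tumors by 1.47 (adjusted p = 0.00329). It was the 1 gene of 9 tested to pass in these comparisons, and the call against controls was kept in 12 of 21 fits without 1 tumor. It was lost without hSS2 control replicates 7, 8, 9 or 10 or Pbrm1-fl replicates 2, 3, 4, 5 or 8 (adjusted p up to 0.083). Sox13 was higher in hSS1 than in hSS2 controls, at 138 against 39.7 CPM (log2 difference 1.80, edgeR adjusted p = 0.00363), a call lost without hSS1 control replicate 4 (adjusted p = 0.215). Of 6 POU partner genes tested, Pou4f1, a factor of sensory neurons, rose from 6.17 to 19.3 CPM with Pbrm1 disruption in hSS2 (log2 difference 1.64, edgeR adjusted p = 0.0323), and Pou3f1 fell from 12.5 to 3.86 CPM with Arid1a disruption (-1.71, adjusted p = 0.0477). These calls were kept in 14 and 9 of 21 fits without 1 tumor, with adjusted p up to 0.0802 for Pou4f1 and 0.10 for Pou3f1. With controls of the same mouse numbers the calls against hSS2 controls of Sox14, Pou4f1 and Pou3f1 were lost (edgeR adjusted p = 0.172, 0.127 and 0.199), as was that of Sox14 against Arid1a-fl (0.0906). Without the low-count filter the calls against hSS2 controls were lost too (0.0589, 0.0526 and 0.074).

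The neuronal genes listed as SOXC targets did not go one way with Sox11 in hSS2. With Pbrm1 disruption 1 of 10 tested rose, the intermediate filament gene Ina, from 7.24 to 21.4 CPM (log2 difference 1.58, edgeR adjusted p = 0.00272), and 1 fell, the microtubule gene Dcx, from 6.66 to 0.995 CPM (-2.74, adjusted p = 0.041), and the median of the list was 0.14. The Ina call was kept in 21 and the Dcx call in 11 of 21 fits without 1 tumor. Ina was lost with controls of the same mouse numbers (edgeR adjusted p = 0.0581) and Dcx without the low-count filter (0.0689). In hSS1 against hSS2 controls 8 of 12 were higher and none lower, with a median of 1.37 against -0.053 over all genes tested. The lowest adjusted p values there were those of Elavl4 (16 against 0.199 CPM, edgeR adjusted p = 1.36e-05), Marcksl1 (214 against 86.7 CPM, adjusted p = 0.000483) and Elavl3 (29.8 against 3.18 CPM, adjusted p = 0.00104). The Pbrm1-fl effect on 4 of these 12 genes was lower in hSS1 than in hSS2, among them Tubb3 (-6.08, edgeR adjusted p = 0.00658), Elavl3 (-6.82, adjusted p = 0.00802) and Nefl (-5.67, adjusted p = 0.0185), while in hSS1 alone 0 of 10 passed in edgeR and 5 had an unadjusted p under 0.05. The differences of Tubb3, Elavl3 and Nefl were lost with controls of the same mouse numbers (edgeR adjusted p = 0.122, 0.0918 and 0.254).

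Of the 11 neural progenitor genes tested beside Sox2, 1 fell with Pbrm1 disruption in hSS2, Prom1, from 12.7 to 1.65 CPM (log2 difference -2.95, edgeR adjusted p = 0.000969), with a list median of 0.011. Among 10 cartilage genes tested 1 rose in that comparison, Matn1, from 0.365 to 3.04 CPM (3.03, edgeR adjusted p = 0.00322), while Sox9 itself did not pass. With controls of the same mouse numbers the Prom1 call was kept (edgeR adjusted p = 0.000908) and the Matn1 call lost (0.165). With Arid1b disruption none of the genes on the pathway lists passed in edgeR. Per list 0 to 4 had an unadjusted p under 0.05, beside 1250 of 20083 genes tested. With Pbrm1 disruption in hSS1 none passed in edgeR either. Per list 1 to 5 had an unadjusted p under 0.05, beside 3059 of 17786 genes tested. Between hSS1 and hSS2 controls 2 of 11 neural progenitor genes were higher in hSS1, 1 of 11 cartilage genes was lower, and of 14 neural crest and glia genes 2 were higher and 1 lower, beside 12.7% higher and 12% lower over all genes tested.

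Across the 37 hSS2 tumors, 6 of 28 pairs of SOX genes were correlated at an adjusted p under 0.05 (Pearson's r of log2 CPM, permutation test with 100000 resamples, Benjamini-Hochberg over 28 pairs). The closest was Sox2 with Sox6, at r = 0.66 and Spearman's rho = 0.63, with adjusted permutation p of 0.00028 and 0.00196, and r = 0.67 without the 2 tumors farthest from the median of Sox2. This pair kept its sign in each mouse number range, with r of 0.63, 0.39 and 0.64 from the lowest range up, and r was 0.58 after group means were taken out. Sox2 with Sox11 had r = 0.65 and rho = 0.55 (adjusted permutation p = 0.00028 and 0.00607), 0.73 without the 2 farthest tumors, and 0.51 after group means were taken out. Within ranges it was uneven: -0.11 among 13 tumors numbered under 1000, 0.68 among 12 from 1000 to under 2000 and 0.93 among 12 from 2000.

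The other 4 pairs were weaker and did not pass once group means were taken out. They were Sox6 with Sox11 (r = 0.50, rho = 0.48), Sox2 with Sox5 (0.45 and 0.51), Sox5 with Sox9 (0.46 and 0.18) and Sox9 with Sox12 (-0.44 and -0.55). Their adjusted permutation p were 0.0189, 0.0287, 0.0287 and 0.0306 for r and 0.0161, 0.0114, 0.469 and 0.00607 for rho. Leaving out the 2 tumors farthest from the median of the first gene gave r of 0.45, 0.38, 0.24 and -0.43, so that Sox5 with Sox9 rested on those tumors. Sox5 with Sox9 also had r = -0.09 in the middle mouse number range. Among the SOXC genes, no pair of Sox4, Sox11 and Sox12 passed by Pearson's r. Sox4 with Sox12 passed by Spearman's rho alone (rho = 0.42, adjusted permutation p = 0.0462, and r = 0.40, adjusted permutation p = 0.0557).

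**Figure D5:**
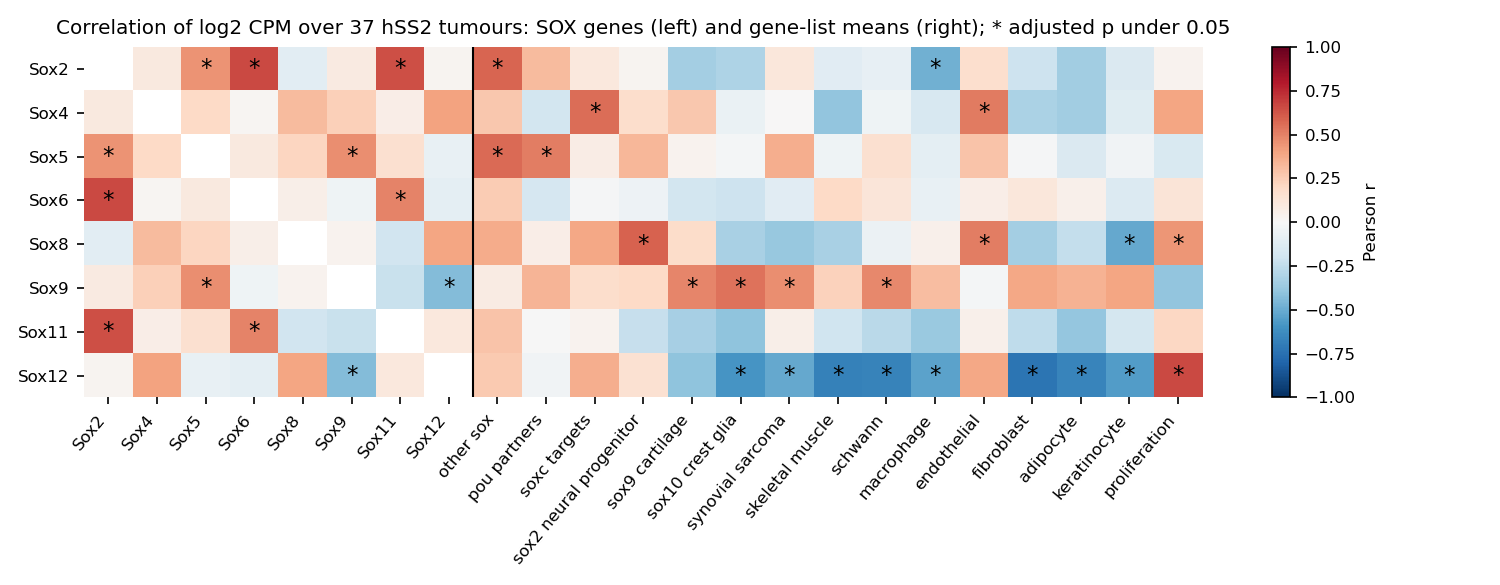
Pearson's r of log2 CPM over 37 hSS2 tumors between 8 SOX genes (rows) and the same genes or the mean of a gene list (columns), from blue at -1 to red at 1, with asterisks where the adjusted p was under 0.05. Sox12 carries 9 of the 23 asterisks on the gene lists, and Sox11 and Sox6 carry none there.

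Against 15 gene list scores, 23 of 120 pairs passed (same test, Benjamini-Hochberg over 120 pairs), and all 23 had the same sign in the 3 mouse number ranges. Sox12 took 9 of them. It ran with proliferation markers (r = 0.66, rho = 0.67) and against fibroblast (r = -0.73, rho = -0.76), skeletal muscle (r = -0.68, rho = -0.72), Schwann (r = -0.67, rho = -0.64) and adipocyte markers (r = -0.66, rho = -0.68), with adjusted permutation p of at most 0.00096 for r and 0.0006 for rho. Without the 2 tumors farthest from the Sox12 median these r were 0.66, -0.71, -0.65, -0.61 and -0.66. Sox12 was lower in libraries with more host tissue markers, and the part of these markers in its group differences was not tested.

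Sox9 was correlated with the cartilage list (r = 0.49, rho = 0.52, adjusted permutation p = 0.0117 and 0.0084) and the neural crest and glia list (r = 0.54, rho = 0.63, adjusted p = 0.00582 and 0.000933), and r without the 2 farthest tumors was 0.51 for each. Sox4 was correlated with the SOXC target list (r = 0.56, rho = 0.52, adjusted permutation p = 0.00425 and 0.00826), with r = 0.44 without the 2 farthest tumors. Sox8, not Sox2, ran with the neural progenitor list (r = 0.59 and rho = 0.55 for Sox8, adjusted permutation p = 0.00223 and 0.0036, and 0.55 without the 2 farthest tumors), where Sox2 had r = 0.02. The difference between these r was not tested. Sox11 had r = 0.04 with the SOXC target list and between -0.40 and 0.28 with all 15 lists, its r with skeletal muscle, fibroblast and proliferation markers being -0.20, -0.25 and 0.21, none past the threshold.

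Among 17285 genes ranked by Spearman's rho over the 37 hSS2 tumors, those most like Sox11 were Dchs1 (0.808), Pbrm1 (0.769), Nedd4 (0.768), Rcbtb2 (0.767) and Ank3 (0.755). Pbrm1 is the floxed gene of the 8 tumors with the lowest Sox11 levels as a group, so its place in this order includes the genotype. The genes most like Sox2 were Oaz2 (0.836), Sox2ot (0.809) and Sox1ot (0.807). Those most like Sox5 were Gm44068 (0.887), Sox5it (0.790) and Nckap5 (0.751), and Gm44068 and Sox5it are annotated inside Sox5 on its strand, with no shared exonic base. Sox4 was most like Gm40841 (0.798), the proto-oncogene Mycn (0.753) and Bri3bp (0.727). Genes close to Sox6 included Fer (0.776) and Mapre2 (0.776). Sox8 was most like Pomt2 (0.768), Prr18 (0.734) and AU021092 (0.727), and Sox9 most like Alpk1 (0.737), Pogk (0.734) and Ptpro (0.721). Sox12 was most like Trim28 (0.864), Sephs1 (0.854) and Haus1 (0.853). These values describe 37 libraries that share genotype groups and depth, and carry no test.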

How the data were processed

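RNA from fresh frozen tumors was depleted of ribosomal RNA and made into stranded libraries, read as paired ends of 150 bases. Per the labels, the submitters' processing notes name STAR 2.7.11, featureCounts 1.6.3 and mm10, and the deposited values are raw counts of fragments per gene, with hSS2 and hSS1 in separate tables. The counting annotation and strand setting are not given in the sources used here.

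The main test was the quasi-likelihood test of edgeR 4.0.16, run in R 4.3.3 (filterByExpr, TMM, robust glmQLFit and glmQLFTest, Benjamini-Hochberg over all genes tested, threshold 0.05), over the 37 hSS2 libraries, the 9 hSS1 libraries, or all 46 over 56854 shared genes for comparisons across backgrounds, with group as the only term. The script was tested on simulated data. Fold changes carry SE from the quasi-likelihood F statistic and intervals from the residual degrees of freedom. Printed levels are CPM scaled by TMM over 46 libraries, and lengths and positions come from GENCODE on GRCm38. Correlations used log2 CPM with a prior count of 2. Alternatives were DESeq2 1.42.0, its size factors in edgeR, no low-count filter, controls of the same mouse number range, and each tumor left out in turn. No pair of libraries of a group agreed within sampling noise.

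The 9 genes and all lists were chosen with earlier results of these data known. Named were the 9 genes, at most 3 called genes per list and comparison with the smallest adjusted p, every other SOX gene called, and the 5 genes most like Sox11 and 3 most like each other member (mean of at least 1 CPM). Sox1ot, and Sox4, Sox5 or Sox9 outside a call, are given as values only. Drp2 is named as the 1 called gene among the markers for hSS2 Pbrm1-fl against hSS2 controls. A gene that the rule names for Sox6 is not reported here.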

Additional observations from a re-analysis of the deposited data

Results flagged for a closer look

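In 40 sets of a SOX gene in a genotype group of 4 to 8 tumors, 5 had a lowest or highest tumor whose gap to the next, over the range of log2(CPM + 0.1), exceeded Dixon's 95% critical value, which chance exceeds in about 1 of 20 sets. Sox2 was at 3.41 CPM in hSS2 Arid1a-fl replicate 1, with 19.3 CPM in the next tumor (ratio 0.586). Sox6 was at 27.1 CPM in hSS2 Pbrm1-fl replicate 3, with 81.1 CPM in the next (ratio 0.684). Without that tumor the fall of Sox6 in Pbrm1-fl was no longer called. Sox12 was at 15.3 CPM in hSS2 Arid1b-fl replicate 3, with 26.8 CPM in the next (ratio 0.542), and at 17.6 CPM in hSS1 control replicate 5, with 54.6 CPM in the next (ratio 0.839). Sox5 was at 72.0 CPM in hSS1 control replicate 4, with 15.9 CPM in the next (ratio 0.786), and without this tumor the Pbrm1-fl effect on Sox5 differed between hSS1 and hSS2 (edgeR adjusted p = 0.0474).

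The effect of floxed Pbrm1 on Sox4 differed between the backgrounds, by -1.77 on the log2 scale, from -1.73 in hSS1 to 0.03 in hSS2 (edgeR adjusted p = 0.0429). This call was lost in 17 of 30 fits without 1 tumor, with controls of the same mouse numbers (adjusted p = 0.358) and without the low-count filter (adjusted p = 0.0764). In hSS1 all 4 Pbrm1-fl tumors were below the control median. The fitted fall of Pbrm1 was smaller in hSS1 than in hSS2, and its part in the Sox4 difference was not tested.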

How the results depend on the processing

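For the 8 SOX genes tested, 1205 of 1312 alternative values kept direction and side of the threshold, 48 changed sign, 46 lost a call and 13 gained one; where no value below shows the cause, the cause was not tested. With controls of the same mouse number range, which leaves fewer samples, the count of called SOX genes was 0 in place of 2 for hSS2 Pbrm1-fl, 1 for Arid1a-fl, 2 for Pbrm1-fl against Arid1a-fl and 1 for the difference between backgrounds. With DESeq2 it was 4, 1, 3 and 1 in these comparisons, and 1 in place of 0 in hSS1. DESeq2 also called more genes over all, namely 2164, 1696 and 3225 of 20083, 1195 of 21699, and 1184 of 17608 in hSS1. Without the low-count filter the count of called SOX genes was 1, 0, 2 and 0. There 1231, 243 and 2299 of 40638 and 402 of 41165 genes were called over all. The hSS1 against hSS2 control count was 3 in these settings and 3 to 4 without 1 tumor, and the Arid1b-fl count was 0 in all.

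Leaving out 1 tumor gave 1 to 3 calls for Pbrm1-fl, 0 to 1 for Arid1a-fl, 2 in each fit for Pbrm1-fl against Arid1a-fl, 0 in each for hSS1 Pbrm1-fl and 0 to 2 for the difference between backgrounds. After group means were taken out, 2 SOX pairs in place of 6 and 36 pairs of a SOX gene and a list in place of 23 were correlated.

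Values that changed sign were of genes without a call. With same-range controls they were -0.24 for Sox4 and -0.92 for Sox8 in Pbrm1-fl, 0.93 for Sox8 in Arid1a-fl, -0.082 for Sox9 in Arid1b-fl, -0.13 for Sox4 and -1.85 for Sox8 in Pbrm1-fl against Arid1a-fl, and 0.080 for Sox12 in the difference between backgrounds. Without 1 tumor the ranges that crossed 0 were -0.10 to 0.13 for Sox4 and -0.079 to 0.33 for Sox8 in Pbrm1-fl, -0.40 to 0.14 for Sox8 in Arid1a-fl, and in Arid1b-fl -0.030 to 0.42 for Sox2, -0.17 to 0.17 for Sox4, -0.21 to 0.059 for Sox6 and -0.29 to 0.14 for Sox9. They were -0.21 to 0.12 for Sox12 in Pbrm1-fl against Arid1a-fl, -0.48 to 1.53 for Sox5 in hSS1 Pbrm1-fl and -0.040 to 0.87 for Sox8 between controls.

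Over all genes, calls went from 1476 to 477 with same-range controls for Pbrm1-fl, from 637 to 1405 for Arid1a-fl, from 11 to 0 for Arid1b-fl, from 2468 to 436 for Pbrm1-fl against Arid1a-fl and from 622 to 9 for the difference between backgrounds. The hSS1 Pbrm1-fl count was 1 in edgeR, 0 with same-range controls and 1184 in DESeq2. DESeq2 called 2164 genes for Pbrm1-fl, 1696 for Arid1a-fl, 3225 for Pbrm1-fl against Arid1a-fl and 1195 for the difference between backgrounds. Without the low-count filter 243 genes were called for Arid1a-fl, 27 for Arid1b-fl and 402 for the difference between backgrounds.

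Of 29 calls on other named genes, 17 were lost with same-range controls, 8 without the low-count filter and 0 with DESeq2 or its size factors, and 85 of 582 values were lost without 1 tumor.

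No paired analysis was possible because the labels name no litters and groups share no replicate number, although the study used littermates as controls. Since each floxed group lies in 1 mouse number range, adding range as a term within a background gives the contrast with same-range controls above. Mouse number range and floxed gene coincide and cannot be told apart outside the controls. Depth limits Sox10, whose counts are too low to compare.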
